A study of Mus musculus with 8 samples.

Results

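Chemokines and their receptors were followed through blood-forming progenitors of mouse bone marrow. The genes were taken by name: symbols starting with Ccl, Cxcl, Ccr or Cxcr and a number, together with Cx3cl1, Cx3cr1, Xcl1, Xcr1 and the atypical receptors Ackr1 to Ackr4, leaving out the Ccrl and Ccrn genes. This gave 56 of the 19938 genes with a value, 34 ligands and 22 receptors, each read from its brightest probe set. All mice were of strain C57BL/6J. Transgenic mice (TG in the sample titles) carried the genotype ∆Hmga2, and wild-type mice (WT) were their controls; the labels state no age, treatment or promoter that drives the transgene. From each genotype, 2 RNA preparations of KLS cells and 2 of MEP cells were made by flow sorting, each preparation from 4 or 6 pooled mice, and each of the 8 preparations was measured on 1 Affymetrix array. KLS cells are the Kit-positive, lineage-negative, Sca-1-positive fraction that holds stem cells and multipotent progenitors, and MEP cells are progenitors of megakaryocytes and red cells. The title of the study names HMGA2 overexpression, so the comparisons are genotype within each cell type and, across genotypes, KLS against MEP cells.

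Chemokines are small secreted proteins that guide migrating cells by binding G protein-coupled receptors on their surface. Inflammatory chemokines are made on demand by myeloid and other cells, whereas homeostatic chemokines are made constantly by tissue cells; in bone marrow, Cxcl12 from stromal cells holds Cxcr4-bearing stem and progenitor cells and developing leukocytes in place. Atypical receptors bind chemokines without coupling to G proteins and remove or redistribute them. Ccl3 and its close relatives Ccl4, Ccl5, Ccl6 and Ccl9 are CC chemokines encoded side by side, and Ccl3 is also known as an inhibitor of stem and progenitor cell division.

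The sequences just upstream of 4 genes are shown because 3 of the genes passed the test between KLS and MEP cells (Ccl3, Ccl9 and Ccr9) and the remaining one, Ccl6, lies next to Ccl9. Each is the 150 bases before the RefSeq start in the GRCm38.p6 assembly, written 5′ to 3′ on the strand of the gene. Ccl3 is at chr11:83649379-83649528, Ccl9 at chr11:83578637-83578786 and Ccl6 at chr11:83593088-83593237, all on the minus strand, and Ccr9 is at chr9:123767061-123767210 on the plus strand. Capitals mark matches, on either strand, to the letters of 6 kinds of motif. The TATA box was searched as TATAAA. The motif of AP-1, a factor of activated cells, was searched as TGANTCA. That of the Ets factors of blood cells was searched as GAGGAAG. The GATA factors were searched as AGATAA, and the myeloid C/EBP factors as TTGCNNAA. The NF-kB motif was searched as GGG and, after any 2 bases, as the letters TTTCC.
Ccl3: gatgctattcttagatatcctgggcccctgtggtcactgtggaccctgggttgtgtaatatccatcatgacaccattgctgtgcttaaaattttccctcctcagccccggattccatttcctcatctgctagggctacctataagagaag
Ccl9: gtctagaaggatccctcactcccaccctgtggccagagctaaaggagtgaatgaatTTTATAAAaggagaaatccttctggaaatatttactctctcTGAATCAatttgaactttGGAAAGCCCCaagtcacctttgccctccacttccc
Ccl6: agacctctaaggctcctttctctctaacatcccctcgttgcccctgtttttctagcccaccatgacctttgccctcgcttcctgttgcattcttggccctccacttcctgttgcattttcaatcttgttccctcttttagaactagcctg
Ccr9: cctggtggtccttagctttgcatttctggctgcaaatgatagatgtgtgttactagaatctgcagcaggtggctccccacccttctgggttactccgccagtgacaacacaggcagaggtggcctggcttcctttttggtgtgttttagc
The Ccl9 stretch held TATAAA at positions -92 to -87 relative to the start, overlapped by a match on the other strand at -94 to -89, then the AP-1 letters at -53 to -47 and the NF-kB letters on the other strand at -35 to -26. None of the 6 sets of letters was found in the 150 bases of Ccl3, Ccl6 or Ccr9, which says only that these letters are not in those windows. Ccl9 and Ccl6 shared a run of 13 bases, gccctccacttcc. The Ccl3 stretch lies within the annotated interval of Ccl4, the Ccl6 stretch within that of the long non-coding RNA E230016K23Rik, and the Ccr9 stretch within that of Gm17021. Over the 250 upstream bases in the table, the NF-kB letters were in 6 of 44 entries for these genes (13.6%, 42 genes) against 1.41% of all 32851 entries. TATAAA was in 14 of the 44 (31.8%) against 12.4% of all, while the Ets letters were in 5 of the 44 (11.4%) against 10.6%. The AP-1 letters were in 4 (9.09%) against 6.75%, the GATA letters in 6 (13.6%) against 9.99% and the C/EBP letters in 2 (4.55%) against 9.56%. These shares are descriptions, and genes of a cluster share sequence.

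The median log2 level of an array was 6.34 to 6.45 before normalization. Over all genes, replicates correlated at 0.983 in WT KLS, 0.988 in TG KLS, 0.981 in WT MEP and 0.988 in TG MEP cells. Between replicates, 3, 3, 1 and 1 of the 56 genes lay more than 2 fold apart in the same order. The shares of all genes were 1.12%, 0.612%, 2.11% and 0.557%. Hmga2 itself (probe set 10372796) had levels of 6.85 to 7.12 in WT and 7.11 to 7.35 in TG KLS cells, and of 6.70 to 6.74 in WT and 6.95 to 6.99 in TG MEP cells; the labels do not say whether this probe set lies in the transgene. The cell labels were read against markers. Stem and multipotent progenitor markers (8 of 10 measured) averaged 7.95 to 8.30 on the KLS and 6.47 to 7.23 on the MEP arrays, with 5 of the 8 called higher in KLS cells by limma. Erythroid and megakaryocyte markers (10 of 12 measured) averaged 8.44 to 8.75 and 8.33 to 8.81, with Tfrc and Rhd called lower in KLS cells. The change was above 0 for 3 of the 10, the megakaryocyte genes Pf4, Itga2b and Gp9, none of them called. Pf4 averaged 7.65 in WT and 7.60 in TG KLS cells, against 6.44 in WT and 5.66 in TG MEP cells. Markers of mature or committed myeloid cells were present throughout: the 15 measured neutrophil and monocyte markers averaged 9.66 to 10.19 on the KLS arrays and 9.29, 8.59, 7.84 and 8.03 on WT MEP 1, WT MEP 2, TG MEP 1 and TG MEP 2. The 14 measured lymphoid markers averaged 6.76 to 7.13 on the KLS arrays and 7.49 on WT MEP 1 against 6.17 to 6.34 on the other 3 MEP arrays.

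Most chemokine genes were dim. A gene was called bright in a group when its mean passed 6.27, the 95th percentile of 1027 olfactory receptor genes, whose expression is largely limited to the nose. Passing this limit does not show that a gene is expressed: the stromal marker Col1a1 passed it in all 4 groups, at 6.76 to 7.34. By this limit 22 of the 56 genes (39.3%) were bright in at least 1 group, against 58.8% of all genes. Of these, 16 were bright in all 4 groups, 9 of them ligands and 7 receptors. The other 34 genes, 22 ligands and 12 receptors, were dim in every group, and each spanned only 0.19 to 0.78 log2 units over the 8 arrays, with a median of 0.45. Values at that level have no reliable order.

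Among the roles, 7 of 16 CC inflammatory chemokines were bright in some group, 2 of 8 CXC and XC inflammatory chemokines (Cxcl1 and Xcl1) and 3 of 10 homeostatic chemokines (Ccl19, Ccl25 and Cxcl17). Of the receptors, 5 of 10 CC receptors, 5 of 8 CXC, CX3C and XC receptors and 0 of 4 atypical receptors were bright. The neutrophil and T cell chemokines Cxcl2, Cxcl9 and Cxcl10 were dim, as were the monocyte chemoattractant Ccl2 and its relatives Ccl8 and Ccl12. The homeostatic chemokine Cxcl12, made chiefly by stromal cells, was dim on all arrays, at 5.57 and 6.10 in WT KLS, 5.91 and 6.07 in TG KLS, 5.69 and 5.75 in WT MEP and 5.70 and 5.80 in TG MEP cells. Over the 8 arrays, 10 of the 56 genes (17.9%) ranged by more than 1 log2 unit, against 10.4% of all genes. The heat map of the 22 bright genes sets out these ranges.

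**Figure D1:**
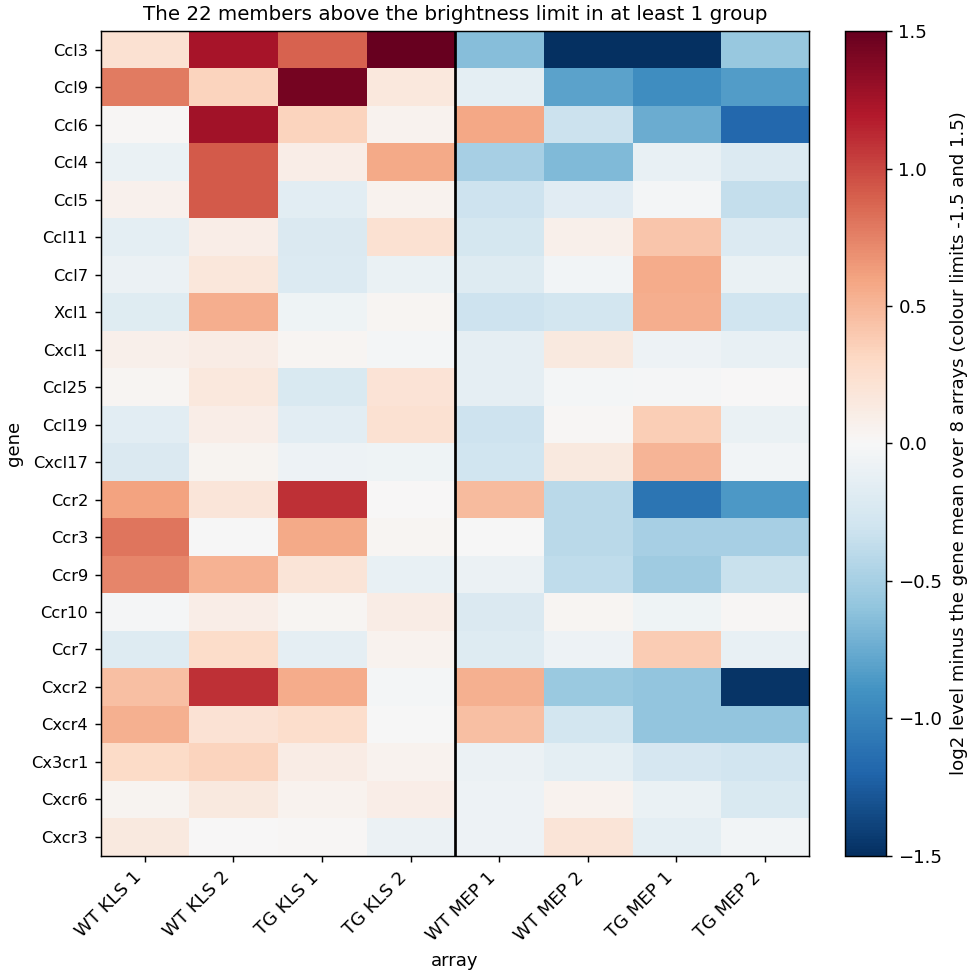
The 22 chemokine and receptor genes that passed the brightness limit in at least 1 group, one per row, over the 8 arrays; colour shows each gene's log2 level relative to its own mean over the arrays. Ccl3 varied most, from 5.73 to 9.31, and Cxcl1 least, from 6.49 to 6.77.

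KLS and MEP cells were compared first, averaged over genotypes. Ccl3, Ccl9 and Ccr9 were higher in KLS cells past the threshold, and no gene of the set was called lower. These 3 of 56 genes (5.36%) stand against 1.6% of all genes called in either direction, 1.2% higher and 0.396% lower. At an unadjusted p under 0.05 the counts were 12 of 56 (21.4%), all higher in KLS cells, against 14.3% of all genes, 8.02% higher and 6.24% lower. KLS and MEP arrays did not overlap for 5 of 56 genes (8.93%), all higher in KLS cells, where 9.04% of all genes were without overlap 4.41% with KLS higher and 4.63% with KLS lower. The median change was 0.07 log2 units over the 56 genes against 0.01 over all genes. The cells were measured in bulk, so fewer cells of a type and less RNA per cell cannot be told apart. The p-values measure the spread between these pooled preparations.

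Ccl3 (probe set 10389231, Entrez gene 20302) is a chemoattractant for monocytes and T cells. Its levels were 7.56 and 8.57 in WT KLS, 8.21 and 9.31 in TG KLS, 6.69 and 5.80 in WT MEP and 5.73 and 6.76 in TG MEP cells. All 4 KLS arrays lay above all 4 MEP arrays, though replicates of each group lay well apart. Ccl3 was higher in KLS cells by 2.17 ± 0.35 log2 units (SE; 95% interval 1.37 to 2.96), with an adjusted p of 0.0335 by limma. Over 4 arrays each, the mean was 8.41 ± 0.73 for KLS and 6.25 ± 0.56 for MEP cells (SD), the latter below the brightness limit, so no fold is given.

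Ccl9 (probe set 10389214, Entrez gene 20308) encodes a CC chemokine of myeloid cells that binds Ccr1. Its levels were 7.88 and 7.44 in WT KLS, 8.54 and 7.26 in TG KLS, 6.96 and 6.30 in WT MEP and 6.18 and 6.27 in TG MEP cells. The cell types did not overlap, and WT MEP 1 stood highest among the MEP arrays. Ccl9 was higher in KLS cells by 1.35 ± 0.27 log2 units (95% interval 0.74 to 1.96), with an adjusted p of 0.0487 by limma. Its receptor Ccr1 was dim, at 4.34 to 5.12 over all arrays.

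The neighbours of these genes on chromosome 11 did not pass the threshold. In GRCm38.p6 order they run Ccl5 (chr11:83525778-83530518), Ccl9 (chr11:83572917-83578636), Ccl6 (chr11:83587886-83593087), Ccl3 (chr11:83647843-83649378) and Ccl4 (chr11:83648624-83664683), whose annotated interval overlaps that of Ccl3. Ccl4, a chemoattractant for monocytes and T cells, had levels of 6.97 and 8.0 in WT KLS, 7.17 and 7.64 in TG KLS, 6.57 and 6.41 in WT MEP and 6.96 and 6.87 in TG MEP cells. The lowest KLS array and the highest MEP array nearly met, and the difference was 0.74 ± 0.21 (limma adjusted p = 0.130). Ccl6, a chemokine of myeloid cells, had levels of 7.42 and 8.67 in WT KLS, 7.73 and 7.46 in TG KLS, 7.99 and 7.08 in WT MEP and 6.66 and 6.23 in TG MEP cells. Here WT MEP 1 lay above 3 of the 4 KLS arrays, and the difference was 0.83 ± 0.29 (limma adjusted p = 0.210). Ccl5, a T cell and platelet chemokine, had levels of 7.57 and 8.43 in WT KLS, 7.35 and 7.56 in TG KLS, 7.20 and 7.33 in WT MEP and 7.48 and 7.15 in TG MEP cells. WT KLS 2 stood above all other arrays for Ccl5, and the difference was 0.44 ± 0.18 (limma adjusted p = 0.318).

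A second group of CC genes on chromosome 11 gave no call. It holds Ccl2 (chr11:82035577-82037452), Ccl7 (chr11:82045712-82047525), Ccl11 (chr11:82057832-82062955), Ccl12 (chr11:82101845-82103399), Ccl8 (chr11:82115185-82116799) and Ccl1 (chr11:82176666-82179812). Ccl11, the eosinophil chemokine eotaxin, was bright in all groups, at 6.39 to 6.83 on the KLS and 6.35 to 7.03 on the MEP arrays. Its difference of -0.02 log2 units lay far within the spread of each cell type. Ccl7, which attracts monocytes through Ccr2, was bright in TG MEP cells alone, at 6.64 and 5.97, where the other 6 arrays ran from 5.88 to 6.24.

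Receptors held the third call. Ccr9 (probe set 10590620, Entrez gene 12769), the receptor for Ccl25 on thymus-seeding progenitors and gut-homing T cells, had levels of 6.46 and 6.24 in WT KLS, 5.92 and 5.62 in TG KLS, 5.64 and 5.34 in WT MEP and 5.20 and 5.40 in TG MEP cells. WT KLS arrays were highest, and TG KLS 2 lay just below WT MEP 1, so the cell types overlapped by that pair. Ccr9 was higher in KLS cells by 0.66 ± 0.12 log2 units (95% interval 0.38 to 0.95), with an adjusted p of 0.0437 by limma. It passed the brightness limit in WT KLS cells alone, and the other 3 groups, with means of 5.30 to 5.77, lay below it, so no fold is given. Its ligand Ccl25 was bright in every group, at 7.23 to 7.66, with a difference of 0.08 log2 units.

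Cx3cr1, the receptor for fractalkine on monocytes and dendritic cell precursors, had levels of 7.26 and 7.31 in WT KLS, 7.08 and 7.03 in TG KLS, 6.88 and 6.83 in WT MEP and 6.72 and 6.69 in TG MEP cells. The 4 groups took 4 separate levels, with replicates close together. The difference between cell types was 0.39 ± 0.09 (limma adjusted p = 0.0744). Its ligand Cx3cl1 was dim, at 6.10 to 6.28. Ccr3, the eotaxin receptor of eosinophils and basophils, had levels of 7.34 and 6.53 in WT KLS, 7.10 and 6.57 in TG KLS, 6.53 and 6.13 in WT MEP and 6.03 and 6.04 in TG MEP cells. Replicate 2 of each KLS group lay close to WT MEP 1 without overlap, and the difference was 0.70 ± 0.20 (limma adjusted p = 0.127).

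Ccr2 carries inflammatory monocytes out of the marrow, Cxcr2 is the chief chemokine receptor of neutrophils, and Cxcr4 is the receptor for Cxcl12. Ccr2 had levels of 7.99 and 7.56 in WT KLS, 8.48 and 7.39 in TG KLS, 7.85 and 6.97 in WT MEP and 6.28 and 6.52 in TG MEP cells. Cxcr2 had levels of 9.15 and 9.80 in WT KLS, 9.27 and 8.68 in TG KLS, 9.24 and 8.15 in WT MEP and 8.12 and 7.24 in TG MEP cells. Cxcr4 had levels of 10.50 and 10.18 in WT KLS, 10.22 and 9.96 in TG KLS, 10.42 and 9.69 in WT MEP and 9.38 and 9.37 in TG MEP cells. For all 3 receptors WT MEP 1 lay within the range of the KLS arrays, and TG MEP cells were lowest. The differences between cell types were 0.95 ± 0.27 for Ccr2, 1.04 ± 0.29 for Cxcr2 and 0.50 ± 0.17 for Cxcr4 (limma adjusted p = 0.127, 0.127 and 0.189). Without WT MEP 1 they were 1.17, 1.31 and 0.68. For Cxcr4, leaving out each array in turn gave 0.32 to 0.68. Ackr3, the atypical receptor for Cxcl12, was dim at 5.50 to 5.77, with a difference of -0.11 ± 0.10 (limma adjusted p = 0.742), and that of Cxcl12 was 0.18 ± 0.13 (0.644).

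**Figure D2:**
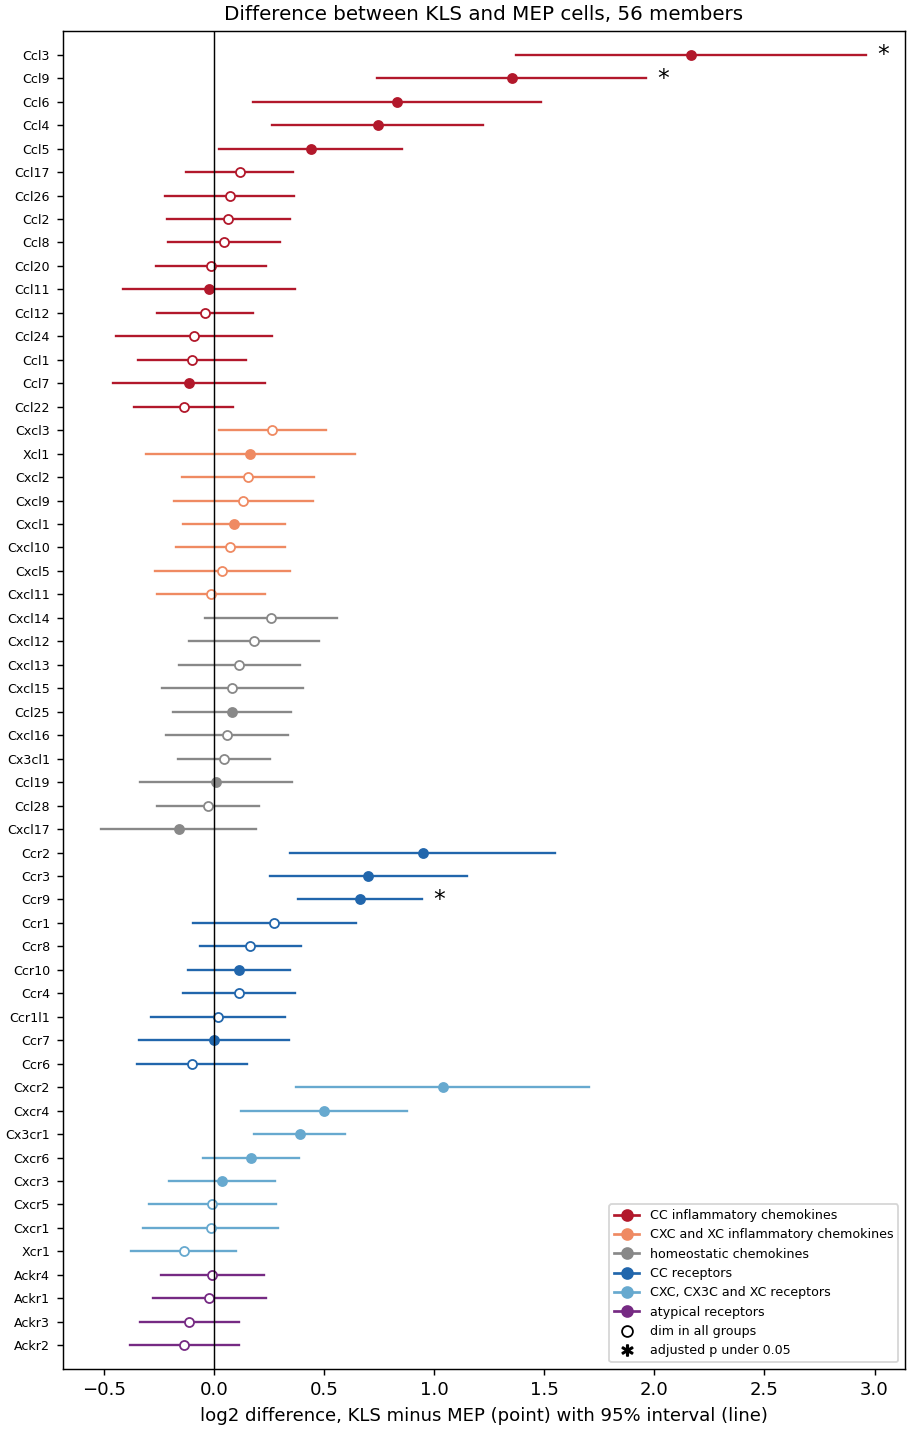
Log2 difference between KLS and MEP cells (x axis) for each of the 56 genes (y axis), averaged over genotypes, with 95% intervals from limma; colours mark the roles, and open circles mark genes dim in every group. Ccl3 at 2.17 and Ccl9 at 1.35 lie farthest to the right, and the atypical receptors lie at or just below 0.

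The level of neutrophil and monocyte markers moved with the same contrast, and so did other marker lists. All 15 measured neutrophil and monocyte markers had a change above 0, with a median of 1.19 log2 units. By limma 7 of them were called higher in KLS cells, against 1.2% of all genes. Stem and multipotent progenitor markers had 8 of 8 changes above 0, with a median of 1.46. Lymphoid markers had 12 of 14 above 0, with a median of 0.17. Erythroid and megakaryocyte markers had 3 of 10 above 0, with a median of -0.19. The part of these lists in the differences of Ccl3, Ccl9 and the receptors was not tested. After median centring in place of quantile normalization Ccl3 alone was called, with the values as deposited Ccl3 and Ccr9, and with robust variances Ccr9 alone. All 3 calls also depended on single arrays. Leaving out each array in turn gave changes of 1.89 to 2.44 for Ccl3, 1.03 to 1.67 for Ccl9 and 0.59 to 0.74 for Ccr9, with adjusted p from 0.0170 to 0.124, 0.0175 to 0.171 and 0.0259 to 0.167. Which genes passed changed with the array left out, and each of the 3 lost its call in most of these fits. Each such fit leaves 1 array in a group, which is assumed to vary like the other groups. No share of all genes is set beside these fits, so they do not show a trait of the chemokine genes.

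Within 1 genotype, with 2 arrays against 2, no chemokine gene passed the threshold. In wild-type cells limma called 0.00502% of all genes and 0 of the 56. Ccl3 differed there by 1.82 ± 0.50 and Ccr9 by 0.86 ± 0.18 log2 units (adjusted p = 0.327 and 0.247). Arrays did not overlap for 21 of the 56 genes against 35.9% of all genes, 15 with KLS higher (19.9%) and 6 with KLS lower (16%). With the values as deposited 17 were higher and 1 lower, against 21.7% and 17.9% of all genes. After median centring 15 were higher and 5 lower, against 15.5% and 22.9%. An unadjusted p under 0.05 was reached by 6 of the 56, all higher in KLS cells, against 8.9% of all genes (4.18% higher, 4.72% lower). Ccl5 differed by 0.74 ± 0.26 in wild-type and by 0.14 ± 0.26 in transgenic cells, a gap whose interaction is given below.

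In transgenic cells limma called 0.135% of all genes and 0 of the 56. Ccl3 differed by 2.51 ± 0.50, Ccl9 by 1.68 ± 0.38 and Ccr2 by 1.53 ± 0.38 log2 units (adjusted p = 0.132, 0.155 and 0.181). Arrays did not overlap for 28 of the 56 genes against 42% of all genes. Of these, 24 were higher in KLS cells against 21.3% of all genes, and 4 were lower against 20.7%. With the values as deposited 20 were higher and 5 lower, against 17.4% and 19.9%. After median centring 20 were higher and 7 lower, against 15.3% and 20.7%. Ccl7 and Cxcl17, a mucosal chemokine, were among the 4 lower in the main setting, at -0.38 ± 0.22 and -0.30 ± 0.22. Both values rested on TG MEP 1, without which they were -0.049 and -0.024, and Ccl7 was dim in every group but TG MEP cells. The unadjusted p was under 0.05 for 9 of the 56, all higher in KLS cells, against 9.61% of all genes (6.69% higher, 2.92% lower).

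**Figure D3:**
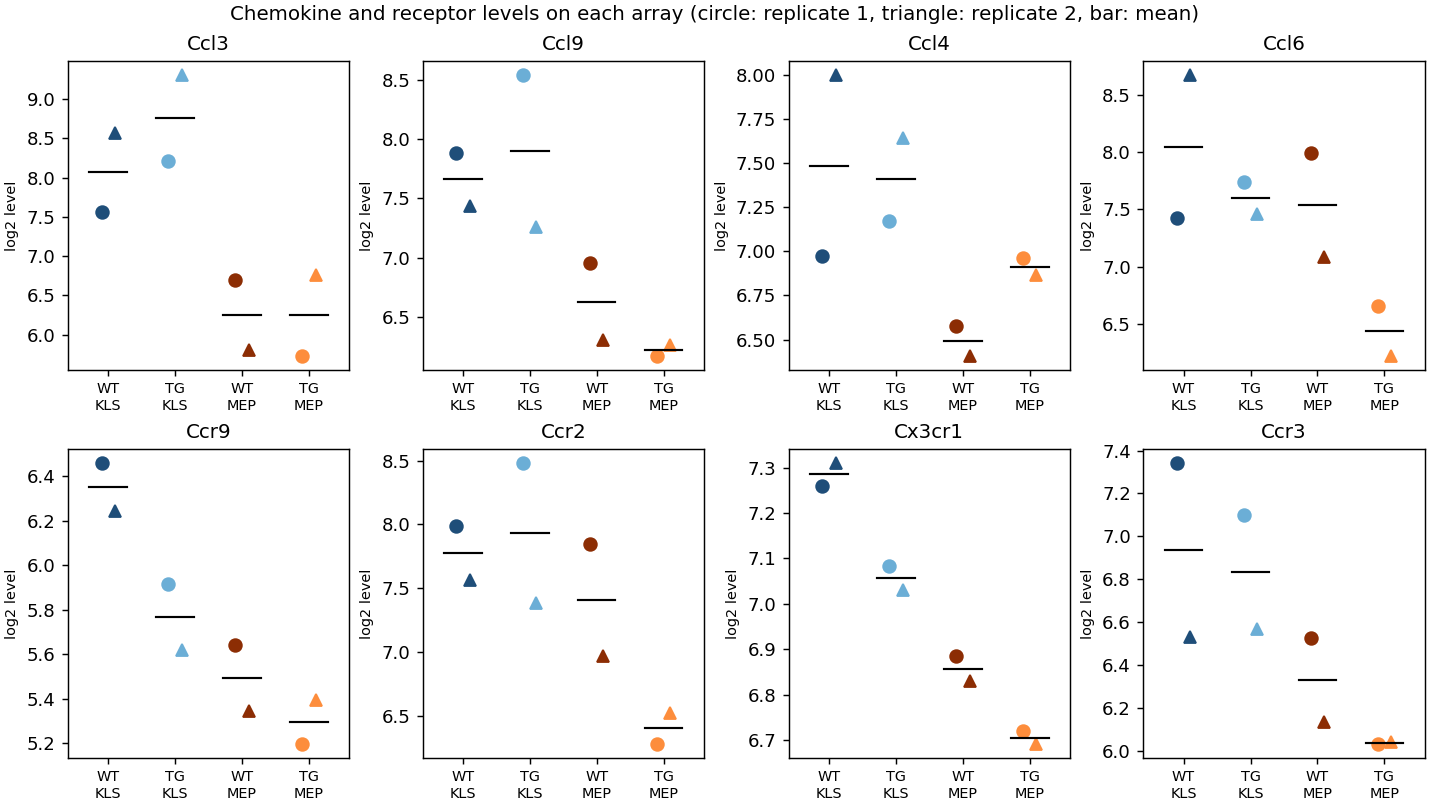
Log2 level (y axis) of 8 genes on each array, by group (x axis); circles are replicate 1, triangles replicate 2 and bars group means. The KLS groups lie above the MEP groups for Ccl3 and Ccl9, while WT MEP 1 reaches the KLS arrays for Ccl6 and Ccr2.

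The effect of the transgene was then compared in KLS cells. Limma called 0% of all genes and 0 of the 56 at an adjusted p under 0.05; 500 genes (2.51%; 1.47% higher and 1.03% lower in TG cells) had an unadjusted p under 0.05, among them 1 chemokine gene, Ccr9. Ccr9 was at 6.46 and 6.24 in WT and 5.92 and 5.62 in TG KLS cells, without overlap, a difference of -0.58 ± 0.18 with an unadjusted p of 0.0091 and an adjusted p of 1.0 by limma. Arrays did not overlap for 16 of the 56 genes against 29% of all genes, 4 higher in TG cells (11.7% of all genes) and 12 lower (17.2%). Ccl5 differed by -0.55 ± 0.26, Cx3cr1 by -0.23 ± 0.13 and the neutrophil chemokine Cxcl1 by -0.10 ± 0.14, each without overlap. The value of Ccl5 was -0.12 without WT KLS 2 and -0.98 without WT KLS 1. Ccl7, dim in both KLS groups, differed by -0.19 ± 0.22. Ccl3 differed by 0.69 ± 0.50 with overlapping arrays, Cxcr4 by -0.25 ± 0.24 and Cxcl12 by 0.15 log2 units. The median over the 56 genes was -0.06 against -0.02 over all genes.

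In MEP cells limma called 0% of all genes and 0 of the 56 by genotype. An unadjusted p under 0.05 was reached by 739 genes (3.71%; 1.24% higher and 2.47% lower in TG cells) and by 6 of the 56: Cxcr4, Ccr2, Ccl6, Ackr1 and Cxcr2 with lower values in TG cells, and the B cell chemokine Cxcl13 with higher values. Cxcr4 differed by -0.68 ± 0.24, Ccr2 by -1.01 ± 0.38, Ccl6 by -1.09 ± 0.41 and Cxcr2 by -1.02 ± 0.41 (unadjusted p = 0.0184, 0.0253, 0.0254 and 0.0368; adjusted p = 1.0 for each by limma). Their array values, given above, did not overlap between the genotypes. Ackr1, the atypical receptor of red cells and endothelium, and Cxcl13 were dim; they differed by -0.43 ± 0.16 and 0.39 ± 0.17. Ccl4 differed by 0.42 ± 0.30 and Ccl25 by 0.08 ± 0.17, both without overlap and with TG cells higher.

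WT MEP 1 carried much of these differences. It was the higher of the WT MEP arrays for Cxcr4, Ccr2, Ccl6, Cxcr2 and Ccl9. Without it the differences were -0.32 for Cxcr4, -0.57 for Ccr2, -0.64 for Ccl6, -0.47 for Cxcr2 and -0.082 for Ccl9. Without WT MEP 2 they were -1.04, -1.45, -1.55, -1.57 and -0.74, with an adjusted p of 0.0888 for Cxcr4 by limma. Either fit leaves 1 WT MEP array, which is assumed to vary like the other groups. WT MEP 1 had the highest mean of every marker list among the MEP arrays, not of the neutrophil and monocyte and lymphoid markers alone. Stem and multipotent progenitor markers were at 7.23 on it against 6.47, 6.48 and 6.57 on WT MEP 2, TG MEP 1 and TG MEP 2. Erythroid and megakaryocyte markers were at 8.81 against 8.69, 8.33 and 8.50 in the same order. In this contrast 0 of the 15 neutrophil and monocyte markers had a change above 0, with a median of -0.97, and their part in the differences of the chemokine receptors was not tested.

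**Figure D4:**
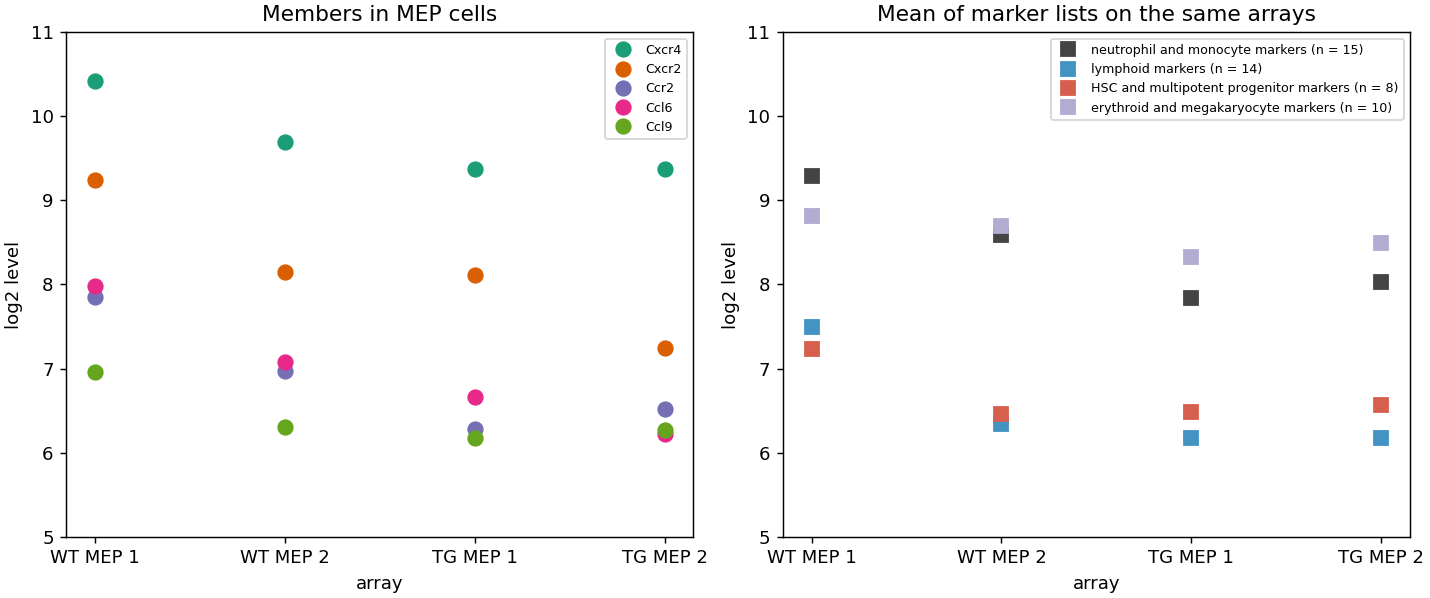
Log2 level (y axis) on the 4 MEP arrays (x axis) of 5 genes (left) and of the mean of 4 marker lists (right). WT MEP 1 is highest for all 5 genes and all 4 lists, and the neutrophil and monocyte markers are at 9.29 on it against 7.84 on TG MEP 1.

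The median genotype difference of the 56 genes in MEP cells changed sign with the scaling. It was -0.03 against -0.01 over all genes, with 23 of 56 above 0 against 48% of all genes; with the values as deposited the median was 0.03 with 30 above 0, and after median centring 0.0055 with 29 above 0. Arrays did not overlap for 22 of the 56 genes against 30.2% of all genes, 4 higher in TG cells (13%) and 18 lower (17.2%). With the values as deposited 6 were higher and 13 lower, against 15.1% and 12.8% of all genes, and after median centring 6 were higher and 15 lower, against 13.9% and 12.8%.

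Averaged over both cell types, limma called 0% of all genes and 0 of the 56 by genotype. An unadjusted p under 0.05 was reached by 649 genes (3.26%; 1.19% higher and 2.07% lower) and by 4 of the 56, all with lower values in TG cells. They were Ccr9 at -0.39 ± 0.12, Cxcr4 at -0.46 ± 0.17, Ccl6 at -0.77 ± 0.29 and Cxcr2 at -0.76 ± 0.29, each with an adjusted p of 0.999 by limma. In both cell types at once, TG and WT arrays did not overlap for 3 of the 56 genes against 4.98% of all genes, 2.08% higher and 2.89% lower. The 3 were Cx3cr1, the Th2 cell receptor Ccr8 and the monocyte chemokine Ccl12, all lower in TG cells. Only Cx3cr1 among them was bright; its average difference was -0.19 ± 0.09.

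The genotype difference in KLS cells less that in MEP cells was tested as an interaction. Limma called 0% of all genes and 0 of the 56, and an unadjusted p under 0.05 was reached by 453 genes (2.27%; 1.16% above and 1.11% below 0) and by 0 of the 56. The smallest p belonged to Ccr2, at 1.17 ± 0.53 (unadjusted p = 0.0562, adjusted p = 1.0). Cxcl13 was at -0.50 ± 0.24, Ackr1 at 0.45 ± 0.23, Ccl7 at -0.54 and Cxcl5 at -0.44 ± 0.27, and Ccl5 was at -0.60. Whether the genotype acted alike on these genes in both cell types was not settled at 2 arrays a group.

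Genes that work with the receptors were read from a list. Of 31 signalling partners of chemokine receptors 28 were measured. Between KLS and MEP cells limma called 1 of them higher in KLS cells and 0 lower, against 1.2% and 0.396% of all genes. Of the 28 changes 27 were above 0, with a median of 0.48 log2 units against 0.01 over all genes. The mean of the list was 7.83 to 8.16 on the KLS arrays and 7.91 on WT MEP 1, while the other 3 MEP arrays were at 7.09 to 7.33, so WT MEP 1 stood within the KLS range. The neutrophil and monocyte markers (15 of 15 above 0, median 1.19) moved with the list in this contrast. So did the stem and multipotent progenitor markers (8 of 8 above 0, median 1.46). The part of these markers in it was not tested. The called gene was Plcb2, the phospholipase C activated by G protein subunits in blood cells, at 7.94 and 7.73 in WT KLS, 8.14 and 7.59 in TG KLS, 7.27 and 6.49 in WT MEP and 6.49 and 6.63 in TG MEP cells. KLS arrays lay above MEP arrays without overlap, and the difference was 1.13 ± 0.19 (limma adjusted p = 0.0359; 0.0745 after median centring). It kept the call without TG KLS 2 or WT MEP 1 and lost it without each of the other 6 arrays (adjusted p from 0.0601 to 0.143). By genotype 0 of 28 were called in either cell type; in MEP cells 3 of 28 changes were above 0 with a median of -0.32, the smallest p being that of Arrb2, a beta-arrestin that uncouples receptors, at -0.54. Arrb2 was at -0.21 without WT MEP 1 and at -0.87 without WT MEP 2, and the neutrophil and monocyte markers moved the same way as the list (0 of 15 above 0, median -0.97). In KLS cells the smallest p was that of Plcb3 at -0.24.

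Of 15 other chemoattractant genes, 13 were measured. Limma called 1 higher in KLS than in MEP cells and 0 lower, against 1.2% and 0.396% of all genes. Of the 13 changes 12 were above 0, with a median of 0.28 log2 units against 0.01 over all genes. The called gene was Ltb4r1, the leukotriene B4 receptor of neutrophils, which differed by 0.58 ± 0.11 (adjusted p = 0.0487; 0.0534 with the values as deposited and 0.0815 after median centring). The call was lost with robust variances (0.0502) and without any 1 of the 8 arrays (adjusted p from 0.0542 to 0.173). By genotype 0 of 13 were called; the smallest p was that of Mmp9, a neutrophil protease that cuts chemokines, at -0.76 ± 0.22 in MEP cells (unadjusted p = 0.0079), and that of Ppbp, a platelet chemokine, at 0.40 in KLS cells. In the interaction the smallest p values were those of C3ar1, the C3a receptor, at -0.67, and of Plcb3 at -0.35.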

How the data were processed

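Total RNA of sorted marrow cells was measured on 8 arrays; groups and replicate numbers came from the sample titles. The values the authors deposited are log2 levels, as read from their range (1.71 to 14.0, 35556 probe sets), made with Affymetrix Expression Console, per the submitters' processing notes. How probes were summarized and normalized was not given in the sources used here. Because the array medians spanned 0.106, more than 0.1, quantile normalization was applied. Probe sets with 1 symbol in the platform annotation (21789) gave 19938 genes, the brightest probe set standing for each; Ccl19 and Ccl25 had several. Another 7 probe sets with several symbols, of the Ccl21 and Ccl27 families, were left out. Names, coordinates and upstream sequences came from RefSeq tables of GRCm38.p6.

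Group means were fitted over all 8 arrays with limma 3.58.1 in R 4.3.3 (4 residual and 4.82 prior degrees of freedom). Tests were two-sided, Benjamini-Hochberg adjusted over the 19938 genes, and a call needed an adjusted p under 0.05. Errors of changes are SE. The number of arrays limits the precision. The procedure was tested on simulated data.

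The genes named are those called, the 5 bright ones with the largest change in each direction without overlap in a contrast, the 5 with the smallest p in the interaction, and Cxcl12, Cxcr4, Ackr3 and Ccr9; from each pathway list up to 4 called genes, or the one with the smallest p. Ligands and receptors shown beside a named gene, Ccl11 and the genes given as dim examples were added after values were seen. Genes and lists were chosen with earlier results of these data known. Alternatives were other scaling, filters, probe set means, variance models, array weights, a block, an adjusted p under 0.10, fits of 1 cell type alone and leaving out each array.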

Additional observations from a re-analysis of the deposited data

Results flagged for a closer look

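In 20 named genes, 40 sets of 4 arrays of a cell type were searched for an array far from the other 3, and 3 were found; chance alone singles out about 1 in 20 such sets. For Ackr3, TG KLS 2 was at 5.62 with the other KLS arrays at 5.56 to 5.57, and TG MEP 2 was at 5.50 with the other MEP arrays at 5.73 to 5.77; the gene was dim in every group, so both gaps lie in values near background. For Ccl9, WT MEP 1 was at 6.96 with the other MEP arrays at 6.18 to 6.30. WT MEP 1 stood apart in this sense for no other named gene.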

How the results depend on the processing

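The number of genes called between KLS and MEP cells, 3 in the main setting, was 1 after median centring (Ccl3), 1 with robust variances (Ccr9) and 5 with the replicate number as a block (Ccl3, Ccl9, Ccr2, Ccr3 and Ccr9). Which genes passed also changed with single arrays left out. These counts have no share of all genes beside them, so they describe the settings and not the chemokine genes. In transgenic cells the replicate block gave 1 call (Ccl9, adjusted p = 0.0491 by limma). The other 5 contrasts gave 0 calls under every setting run. The sample titles do not say whether the replicate numbers pair the samples. Deviations of same-numbered arrays correlated at 0.385 between WT KLS and TG KLS and at 0.346 between TG KLS and WT MEP cells. They correlated at 0.180 between WT KLS and WT MEP cells, and at -0.284 to -0.173 between TG MEP cells and the other groups. Whether same-numbered arrays shared a factor was not tested. The calls of Plcb2 (0.0745) and Ltb4r1 (0.0815) were lost after median centring, and without single arrays in 6 and 8 of 8 fits. Changes near 0 turned sign, given here as the range over single arrays left out. KLS minus MEP in wild-type cells ran from -0.14 (without WT KLS 2) to 0.39 for Cxcl12 and from -0.077 (without WT MEP 2) to 0.65 for Cxcr4, and in transgenic cells from -0.15 to 0.086 (without TG MEP 1) for Ackr3. By genotype, Cxcl12 ran from -0.11 (without WT KLS 1) to 0.42 in KLS cells, from -0.018 (without TG MEP 2) to 0.081 in MEP cells, from -0.040 (without WT KLS 1) to 0.22 on average and from -0.14 (without WT KLS 1) to 0.39 in the interaction, which was -0.018 as deposited. Ackr3 ran from -0.0027 (without TG KLS 2) to 0.058 in KLS cells, with -0.014 as deposited, and from -0.11 to 0.010 (without TG MEP 2) on average. Ccl25 by genotype in MEP cells was -0.026 after median centring. The cause was not tested. Of all values recomputed, 1264 kept direction and side of the threshold, 42 became weaker, 7 stronger and 12 reversed. Signal near background limits what the 34 dim genes can show.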

Other observations

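Which array was highest for a gene differed among the 22 bright genes, a count made after the values were seen. Among the KLS arrays WT KLS 2 was highest for 11 of 22, where it was highest for 25.1% of all bright genes; among these were Ccl6 at 8.67, Ccl5 at 8.43, Ccl4 at 8.0, Xcl1 at 7.25 and Cxcr2 at 9.80. Among the MEP arrays WT MEP 1 was highest for 8 of 22 (31.2% of all bright genes) and TG MEP 1 for another 8 (18.2%). The genes highest on TG MEP 1 were Ccl4, Ccl5, Ccl7, Ccl11, Ccl19, Cxcl17, Xcl1 and the Ccl19 receptor Ccr7. Xcl1, a chemokine of natural killer and T cells, was at 7.25 on TG MEP 1 against 6.40 to 6.43 on the other MEP arrays, and Ccr7 was at 7.85 against 7.29 to 7.41. No test was made of these counts.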
